A study of Neurospora crassa OR74A with 2 samples.

Results

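The genes described here are the 4 genes of the NADPH oxidase complex of Neurospora crassa, a filamentous ascomycete, taken by their identifiers from 8564 genes with a value. They are nox-1 (NCU02110), nox-2 (NCU10775), nor-1 (NCU07850) and pls-1 (NCU07432), and all 4 were found in both libraries. RNA-seq gave 1 library for the wild-type strain FGSC 2489 and 1 for the Δpp-1 strain, which lacks the gene pp-1 for a transcription factor of the Ste12 type. The cultures of both strains were inoculated with 1000000 conidia (asexual spores) per ml and incubated for 5 h at 30 °C. Whether the deletion strain came from 1 isolate, and its mating type and other alleles, are not given in the sources used here. With 1 library per strain there is no replicate error, no test was possible, and every difference describes these 2 libraries.

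NADPH oxidases are membrane enzymes that carry electrons from NADPH across a membrane to oxygen and so make superoxide, which is converted to hydrogen peroxide. In filamentous fungi they act as signalling enzymes in polarised growth and development. In N. crassa, NOX-1 is known for its part in germling fusion, aerial growth and female fertility. NOX-2 is known for its part in the germination of ascospores, the sexual spores, where the tetraspanin PLS-1 is needed as well. NOR-1 is the cytosolic regulator of both enzymes. The NOX-1 arm is represented by nox-1 and the NOX-2 arm by nox-2 and pls-1, with nor-1 common to both.

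Values are RPKM, that is, reads per kilobase of transcript per 1000000 reads of the library. From the spacing of low values, the wild-type scaling rested on a total of 7870073 reads and that of Δpp-1 on 9363920. Fold differences are log2((Δpp-1 + 1)/(wild type + 1)), with 1 RPKM added so that low values stay defined. Of the 4831 genes that reached 10 RPKM in either library, 6.98% were at least 2-fold lower in Δpp-1 and 2.73% at least 2-fold higher. The median log2 fold of these genes was -0.28, so that a typical gene read slightly lower in Δpp-1 in the values as deposited. When each library was scaled by its median, these shares became 4.53% and 4.35%. The deleted gene pp-1 (NCU00340) had 83.8 RPKM in the wild-type library against 1.69 RPKM in Δpp-1. It was thus far lower in Δpp-1, as its label requires, but not absent, and the source of the remaining signal was not tested.

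All 4 complex genes had lower values in Δpp-1 as deposited, where the median gene also read lower, and to very different degrees. Both pls-1 and nox-1 were at least 2-fold lower, whereas nor-1 and nox-2 were not. The largest and the smallest difference both lay in the NOX-2 arm. The 2 of 4 members at least 2-fold lower are to be set beside the 6.98% of all genes, and the members' median log2 fold of -1.12 beside -0.28 for all genes counted.

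**Figure D1:**
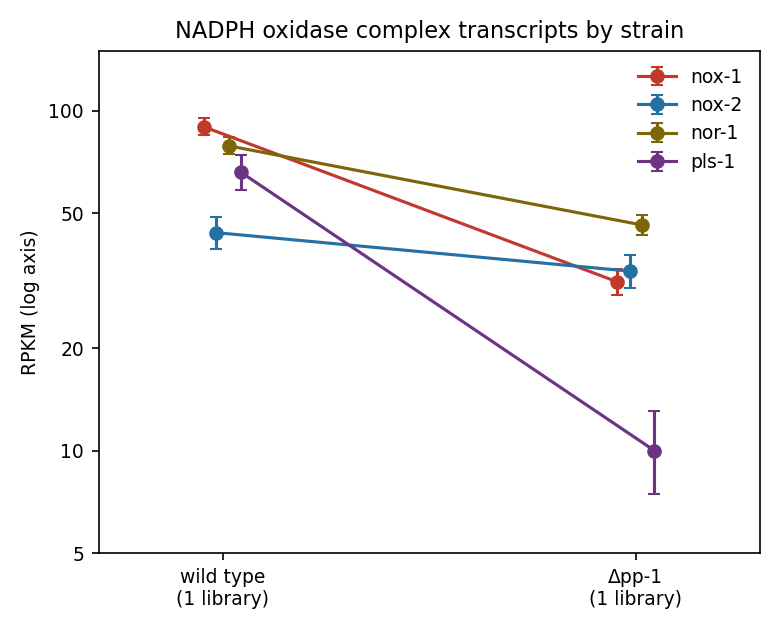
RPKM of the 4 NADPH oxidase complex genes (log axis) in the wild-type and the Δpp-1 library, with lines joining the values of a gene and bars for the exact 95% counting interval. In the wild type nox-1 is highest at 89.6 RPKM and nox-2 lowest at 43.8 RPKM, and in Δpp-1 nor-1 is highest at 46.1 RPKM and pls-1 lowest at 10.0 RPKM.

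The catalytic subunit gene nox-1 measured 89.6 RPKM in the wild-type library and 31.4 RPKM in Δpp-1. The wild-type level was thus 2.85-fold that of the deletion strain, with a log2 fold of -1.48. Whole reads matched both values at a single transcript length, 3307 bases, with 2332 reads in the wild type and 972 in Δpp-1. Counting intervals throughout use 50% of the reads as a cautious figure. On the log2 scale the RPKM ratio had a 95% counting interval of -1.67 to -1.36, below the median gene. Relative to that median the log2 fold was -1.21, and after median scaling -1.23, still past 2-fold lower as for 4.53% of all genes on that scale. By log2 fold nox-1 was number 173 from the lowest of 4831 genes, and 3.58% of the genes were as low or lower.

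The other catalytic subunit gene, nox-2, measured 43.8 RPKM in the wild-type library and 33.7 RPKM in Δpp-1. Its log2 fold was -0.37, and -0.09 relative to the median gene. Whole reads matched at 1 length, 1991 bases, with 686 reads in the wild type and 629 in Δpp-1. The log2 ratio had a counting interval of -0.60 to -0.15, which holds the median gene's value of -0.28. Of all genes counted, 41.2% had a fold as low or lower, which places nox-2 near the middle. With both libraries rescaled to the same sum its log2 fold was 0.023, so the sign of this small difference depended on the scaling.

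The regulator gene nor-1 measured 78.8 RPKM in the wild-type library and 46.1 RPKM in Δpp-1. The log2 fold was -0.76, or -0.48 relative to the median gene, and did not reach 2-fold on either scale. Its log2 ratio had a counting interval of -0.90 to -0.64. Of all genes counted, 12.9% were as low or lower. The gene of the factor common to both arms thus lay between the catalytic subunit genes.

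The tetraspanin gene pls-1 measured 65.8 RPKM in the wild-type library and 10.0 RPKM in Δpp-1. Tetraspanins are small proteins that span the membrane repeatedly and organise other membrane proteins. The wild-type level was 6.57-fold that of Δpp-1, with a log2 fold of -2.60, or -2.32 relative to the median gene. It was the only member past 4-fold lower, a size reached by 2.34% of all genes counted, or 2.01% after median scaling. By log2 fold pls-1 was number 79 from the lowest of 4831. Several transcript lengths gave whole reads for it. At the smallest that covers at least 50% of the annotated gene, 580 reads stood behind the wild-type value and 105 behind the Δpp-1 value. With 50% of these reads used, the log2 ratio had a counting interval of -3.19 to -2.30. The level of pls-1 moved from percentile 86.1 of all genes in the wild type to percentile 50.4 in Δpp-1, close to the middle of the library.

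**Figure D2:**
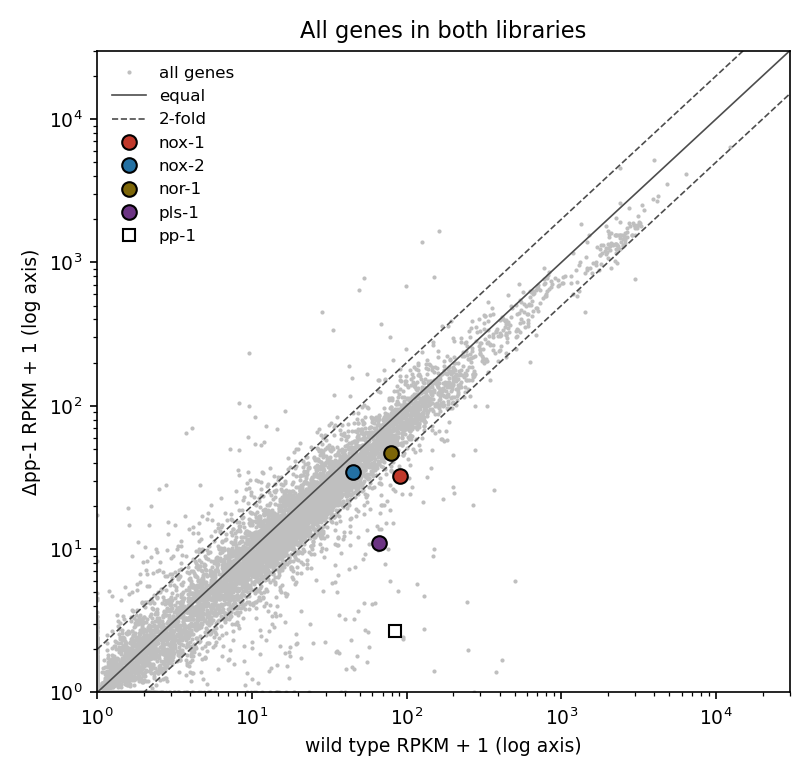
RPKM + 1 of all 8564 genes in the wild-type library (horizontal, log axis) and in the Δpp-1 library (vertical, log axis), with lines for equal values and for 2-fold differences of these quantities. Both nox-1 and pls-1 lie below the lower 2-fold line, nor-1 and nox-2 lie between it and the line of equal values, and pp-1 is shown as the deleted gene.

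RPKM is per length, so levels can also be compared between genes within a library, as far as the authors' gene models hold. In the wild type the order of levels was nox-1, nor-1, pls-1 and nox-2. The intervals of the wild-type levels were 84.5 to 94.9 RPKM for nox-1, 74.4 to 83.4 RPKM for nor-1, 58.4 to 73.8 RPKM for pls-1 and 39.3 to 48.7 RPKM for nox-2, and did not overlap. In Δpp-1 the order was nor-1, nox-2, nox-1 and pls-1. There the intervals of nox-2 (30.1 to 37.7 RPKM) and nox-1 (28.7 to 34.3 RPKM) overlapped, so the order of these neighbours is not set by the counts. The interval of nor-1, 43.0 to 49.4 RPKM, lay above both and that of pls-1, 7.48 to 13.1 RPKM, below both.

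The comparison of the arms asked whether the NOX-1 and the NOX-2 genes differed alike between the strains. A ratio of genes within a library does not depend on how the libraries are scaled to each other. The level of nox-1 was 2.05 times that of nox-2 in the wild type, whereas in Δpp-1 that of nox-2 was 1.07 times that of nox-1. Of the summed RPKM of the catalytic subunit genes, 133 RPKM in wild type against 65.1 RPKM in Δpp-1, nox-1 made up 67.2% and 48.2%. The log2 fold of nox-1 was 1.12 below that of nox-2, a difference of -1.12. The difference of their log2 ratios without the added 1 RPKM was -1.14, with a 95% counting interval from -1.41 to -0.86. The catalytic subunit genes therefore differed unequally between these libraries, beyond counting error.

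The NOX-2 arm was not uniform. The level of nox-2 was 0.665 times that of pls-1 in the wild type and 3.37 times in Δpp-1. The difference of the log2 ratios of pls-1 and nox-2 was -2.34, with an interval from -2.86 to -1.86, larger in size than the difference between the catalytic subunit genes. Against the NOX-1 arm, the level of nox-1 was 1.36 times that of pls-1 in the wild type and 3.14 times in Δpp-1, and the log2 ratio of nox-1 was 1.20 higher, with an interval from 0.76 to 1.70. The regulator nor-1 stood nearer to nox-2, with a difference of log2 ratios of -0.40 and an interval from -0.66 to -0.13. For nox-1 against nor-1 the difference was -0.74, from -0.94 to -0.54. For pls-1 against nor-1 it was -1.94, from -2.43 to -1.51. These 6 intervals were not adjusted for their number and cover counting error only.

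Of 4 genes chosen for the GTPase module that works with NADPH oxidases in filamentous fungi, 3 were used, and these differed little. The small GTPase RAC-1 is a known partner of the NOR-1 type regulator, CDC42 is a related GTPase of cell polarity, and CDC24 is the exchange factor that activates them. The level of rac-1 (NCU02160) was 126 RPKM in wild type against 113 RPKM in Δpp-1. That of cdc42 (NCU06454) was 50.2 and 43.7 RPKM, and that of cdc24 (NCU06067) 12.2 and 11.1 RPKM. Of these 3 genes none was 2-fold lower or higher, beside 6.98% of all genes counted that were 2-fold lower and 2.73% higher. Their median log2 fold was -0.15, beside -0.28 for all genes counted. Differences as large as those of pls-1 and nox-1 were not shared by these 3 genes, nor by most genes.

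**Figure D3:**
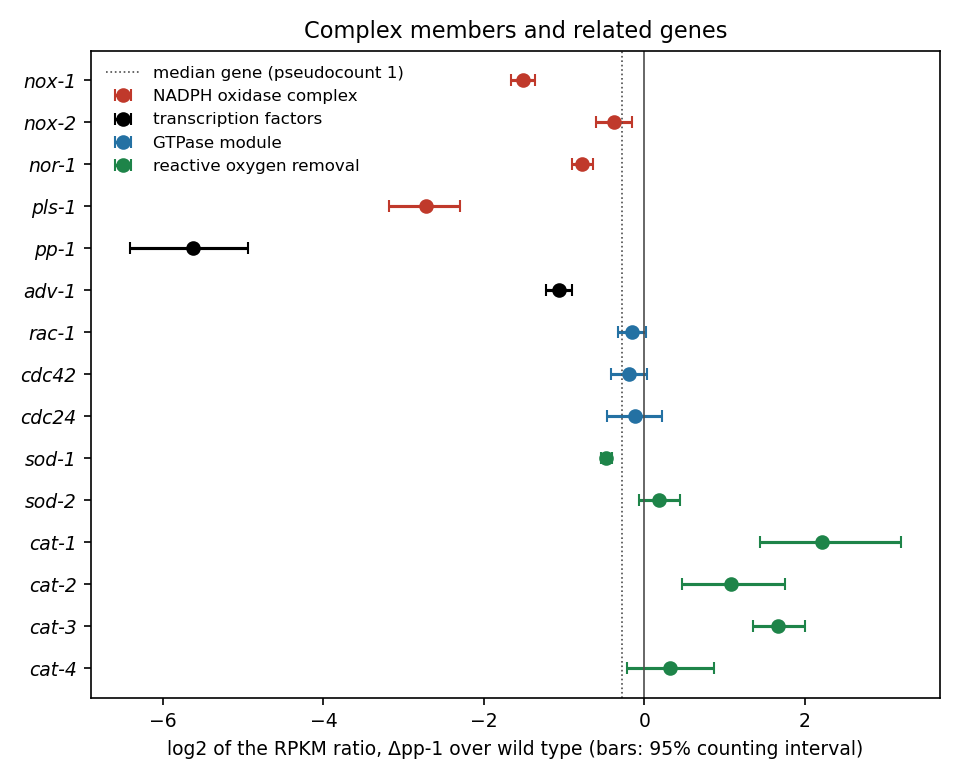
log2 of Δpp-1 RPKM divided by wild-type RPKM for the complex genes, the transcription factor genes, the GTPase genes and the genes of reactive oxygen removal, with bars for the exact 95% counting interval. The dotted line is the median gene at -0.28 on the scale with 1 RPKM added. The bars of nox-1, nor-1 and pls-1 lie below that line, as do those of pp-1, adv-1 and sod-1. Those of the GTPase genes include it, and those of cat-1, cat-2 and cat-3 lie above 0.

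Genes that remove the products of the oxidases differed in both directions. Superoxide dismutases convert superoxide to hydrogen peroxide, and catalases break hydrogen peroxide down. Of 6 genes, 3 reached 10 RPKM, and of these 1 (cat-3) was higher in Δpp-1 by at least 2-fold and none was 2-fold lower, beside 2.73% of all genes counted that were 2-fold higher. Below 10 RPKM, cat-1 was also past 2-fold higher. The catalase gene cat-3 (NCU00355) measured 10.6 RPKM in wild type against 33.4 RPKM in Δpp-1, and cat-1 (NCU08791), a catalase gene known from conidia, at 1.55 and 7.19 RPKM. For cat-2 (NCU05770) the values were 2.83 and 5.96 RPKM and for cat-4 (NCU05169) 6.14 and 7.64 RPKM. The dismutase gene sod-1 (NCU02133), the most abundant of the 6, was lower in Δpp-1, at 726 and 522 RPKM with a log2 fold of -0.47, and sod-2 (NCU01213) had 33.2 and 37.6 RPKM. The median log2 fold of the 6 genes was 0.57, while their summed level was 780 RPKM in wild type and 614 RPKM in Δpp-1. On the side of NADPH supply, 1 of 2 chosen genes was used. This gene, ppm-2 (NCU03100), measured 860 RPKM in wild type against 744 RPKM in Δpp-1, a log2 fold of -0.21, close to the median gene.

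Of the transcription factor genes, adv-1 (NCU07392), whose product is also needed for germling fusion, measured 95.6 RPKM in wild type against 45.7 RPKM in Δpp-1. Its log2 fold of -1.05 was 0.77 below the median gene, short of 2-fold on that scale. In these values adv-1 thus differed less than nox-1 and more than nor-1.

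Markers of other cell types differed between the same libraries. Of 6 conidial markers, 5 reached 10 RPKM, and 4 of these were higher in Δpp-1 by at least 2-fold, beside 2.73% of all genes counted. None of the 6 was 2-fold lower or at 0. Their summed level was 88.7 RPKM in wild type against 333 RPKM in Δpp-1, of which al-1 made up 41.1 and 187 RPKM. The 4 were con-10 with a log2 fold of 2.56, al-1 with 2.16, con-6 with 1.64 and eas with 1.52, while ccg-1 and con-8 had -0.11 and -0.23. Of 6 markers of sexual tissue and ascospores, 2 reached 10 RPKM. Of these 1 was past 2-fold higher, beside the same 2.73%, and none was 2-fold lower, and none of the 6 was at 0. The higher one was the pheromone precursor gene ccg-4 (48.6 and 642 RPKM), which made up most of the summed level of 94.3 RPKM in wild type against 679 RPKM in Δpp-1. The marker sub-1 (NCU01154), which also reached 10 RPKM, was lower in Δpp-1, at 36.3 and 27.3 RPKM. Below 10 RPKM, matA-1 (NCU01958) had 4.06 and 4.85 RPKM and pre-1 (NCU00138) 1.56 and 2.15 RPKM. The median log2 fold of the 6 was 0.11. The ascospore gene asd-1 (NCU05598) stood at 2.22 and 2.26 RPKM and poi-2 (NCU05768), known from the sexual cycle, at 1.55 and 0.401 RPKM. Without the added 1 RPKM the wild-type level of poi-2 was 3.87-fold that of Δpp-1, with a log2 counting interval from -5.18 to 0.65. The part of these markers in the values of the complex genes was not tested. In such whole cultures, fewer cells of a type and less RNA per cell cannot be told apart.

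No neighbouring gene that reached 10 RPKM was lower in Δpp-1 by as much as nox-1 or pls-1. In assembly NC12 none of the nearest protein-coding genes overlapped a complex gene. Next to nox-1 lie NCU02111, at 26.7 RPKM in wild type against 30.6 RPKM in Δpp-1, and NCU02109, at 53.3 and 51.4 RPKM. Next to pls-1, NCU07430, 6278 bases away, stood at 82.4 and 54.5 RPKM. Its log2 ratio had a counting interval of -0.79 to -0.40, below the median gene. On the other side of pls-1, NCU07433 had 0.0936 RPKM in wild type and 0 in Δpp-1, too low to compare. The neighbours of nor-1, thi-4 (NCU07849) and NCU07851, had log2 folds of 0.48 and 0.15, and those of nox-2, NCU02289 and NCU10776, of -0.24 and -0.54. No neighbour that reached 10 RPKM was 2-fold lower or higher. This is to be set beside 6.98% of all genes counted that were 2-fold lower and 2.73% higher, so most genes were in neither class.

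The pair of values of each member was also compared with those of all genes with a symbol, by the distance between their log2(RPKM + 1) values over the 2 libraries, which describes level and fold together and no more. The genes nearest to pls-1 were so (NCU02794), a gene needed for germling fusion, at 52.4 RPKM in wild type against 16.5 RPKM in Δpp-1, ada-1 (NCU00499), which encodes a transcription factor, at 45.4 and 6.55 RPKM, and the fusion gene ham-6 (NCU02767) at 74.2 and 20.6 RPKM. They lay 0.74, 0.76 and 0.99 from it, farther than the nearest genes of the other members. Nearest to nox-1 were tca-17, gh47-4 and cre-1, the gene of the carbon catabolite repressor, at 0.22, 0.36 and 0.43. For nor-1 they were spe-2, ota and gnn at 0.07 to 0.09, and for nox-2 aab-1, uvs-5 and nrc-2 at 0.02 to 0.08. With 2 libraries many genes share any one pattern.

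**Figure D4:**
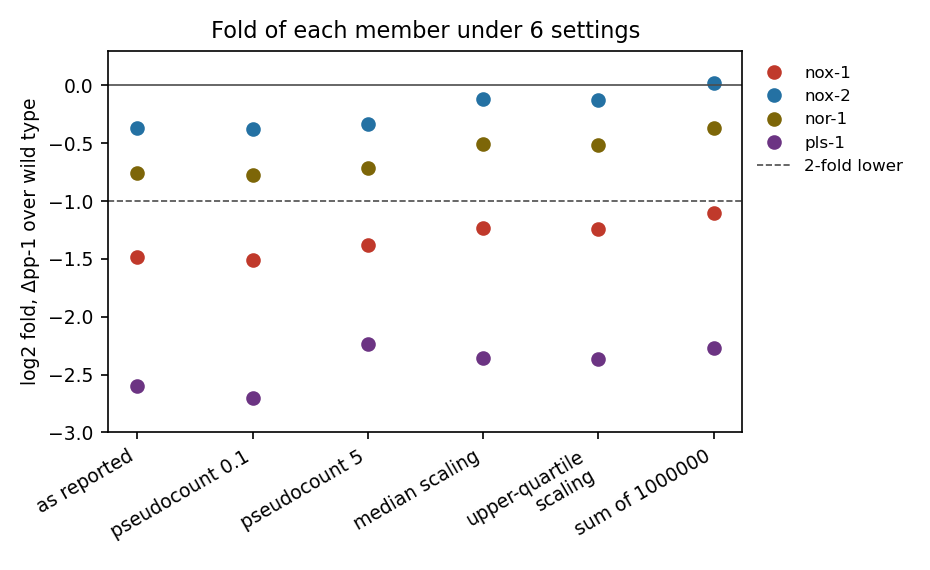
log2 fold of each complex gene, Δpp-1 over wild type, as reported and under 5 other settings of pseudocount and scaling. Under all 6 settings pls-1 stays lowest, between -2.70 and -2.24, and nox-1 stays past the dashed 2-fold line, between -1.51 and -1.10. nor-1 stays between -0.77 and -0.37, and nox-2 crosses 0 at the equal-sum scaling.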

How the data were processed

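Per the labels' protocols, poly(A) RNA from a Trizol extraction was fragmented and copied to cDNA with random primers, steps that keep no record of strand. The deposited values are RPKM per the file headers. Per the submitters' processing notes, the authors used TopHat and Cufflinks. The versions, annotation and genome build are not given in the sources used here. The 2 files each held 8802 lines for 8564 genes, and each gene was counted once.

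Symbols, gene lengths, neighbours and their overlap came from RefSeq's table of assembly NC12 (8178 identifiers matched), whose coordinates are not printed. Log2 folds used a pseudocount of 1 RPKM. Counts past 2-fold and their shares are over genes that reached 10 RPKM in either library.

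The reads behind the values were recovered from the spacing of low values. The product of RPKM and gene length fell on whole multiples of 1 step, within a relative 2e-05 and up to 30 steps, for 45 genes in the wild type and 44 in Δpp-1, against at most 1 at shifted steps. Odd multiples were among them and exactly 1 step was not, so the counted unit may be less than a fragment. Of 5583 genes between 2 and 200 RPKM, 95.9% had a transcript length that gave whole reads in both libraries (within 0.0005 reads or the rounding of the files), against 7.09% and 7.29% with the step shifted by 0.1%. Counting intervals are exact 95% intervals (Clopper-Pearson for ratios, conditional for differences of ratios, Poisson for levels). They use 50% of the reads as a cautious figure and the smallest matching length of at least 50% of the gene, or 50% of the gene where none matched (pp-1, rac-1). They cover counting error only, and PCR copies are not independent molecules.

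The members, lists and tests were chosen with earlier results of these data known. Genes named are the 4 members, pp-1, adv-1, the lists above and the nearest protein-coding gene on either side. Also named are the 3 nearest patterns per member among genes with a symbol, and NCU01509, picked afterwards for its values. From the lists, 3 genes without a symbol in RefSeq's table were left out. Relatives by protein sequence and promoter motifs, also planned, were not analysed here. The scripts were tested on simulated data. Python 3.11.15, numpy 2.4.6, pandas 2.3.3, scipy 1.17.1 and matplotlib 3.10.9 were used.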

Additional observations from a re-analysis of the deposited data

How the results depend on the processing

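No paired analysis was possible because there was 1 library of each strain, which also left no replicate to omit. All 3 scaling alternatives raise Δpp-1 against the wild type. With median, upper-quartile and equal-sum scaling the log2 fold was -1.23, -1.24 and -1.10 for nox-1, -0.11, -0.12 and 0.023 for nox-2, and -0.51, -0.51 and -0.37 for nor-1. The fold of pls-1 (-2.70 to -2.24) and the difference between nox-1 and nox-2 (-1.14 to -1.05) moved by less than their counting intervals under all 5 alternatives. Both nox-1 and pls-1 stayed past 2-fold lower, and nor-1 and nox-2 stayed short of it. The main counts were 337 genes lower and 132 higher. Median scaling gave 219 lower and 210 higher, upper-quartile scaling 222 and 205, and equal sums 197 and 288, so the share of lower calls depends on the scaling. Dropping the filter, or lowering it to 1 RPKM, gave 521 and 252, a filter of 30 RPKM gave 179 and 67, and a 1.5-fold threshold gave 1125 and 295. The filters change how many genes are counted, and the 1.5-fold threshold loosens the call over the same genes. Pseudocounts of 0.1 and 5 RPKM kept the counts within 1.5 times. The counts limit pls-1 most among the members, since its Δpp-1 value rests on 105 reads at the length used.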
